A study of Homo sapiens with 13 samples.

Results

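The clustered protocadherins are cell-surface adhesion genes that lie head to tail on the long arm of human chromosome 5, in the alpha, beta and gamma clusters. They were followed here in HEK293T, an established cell line from human embryonic kidney that is transformed with SV40 large T antigen. Members were all array probes whose symbol on the array named a gene of these clusters, which gave 56 of 42405 probes, for 48 of the 21789 gene symbols on the array. The alpha cluster held 16 of them, the beta cluster 18 and the gamma cluster 22.

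Each of 13 Agilent 8x60K arrays hybridised the RNA of treated cells together with that of control cells, labelled in Cy3 and Cy5. In the first treatment WIZ siRNA, which targets a zinc finger partner of the methyltransferases G9a and GLP, was set against control siRNA at 72 h, in 2 biological replicates that were each hybridised both ways round. In the second, G9a siRNA (the gene is EHMT2) was set against control siRNA at 72 h, in 2 biological replicates labelled one way, treated in Cy5. In the third, the G9a and GLP inhibitor UNC0638 at 1 µM was set against DMSO, its solvent, at 48 h, in 5 biological replicates. Both orientations were run for UNC0638 replicates 1 and 2, and treated in Cy5 only for replicates 3 to 5. All cells were grown in the same serum-containing medium, and the siRNAs were given with a transfection reagent. Whether WIZ siRNA and G9a siRNA were set against the same control RNA is not stated. The comparisons ask which genes depend on WIZ, on G9a itself and on the activity of G9a and GLP.

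Clustered protocadherins are best known in the nervous system, where neurons that carry different combinations of them recognise self from non-self. In the alpha and gamma clusters each variable exon has its own promoter and is spliced to constant exons that the genes of the cluster share. The beta genes are unspliced and share no constant exon. Choice among the promoters involves binding of CTCF and cohesin, DNA methylation and methylation of histone H3 on lysine 9, the mark that G9a and GLP write in its mono- and dimethyl forms. The C-type genes at the ends of the alpha and gamma clusters (PCDHAC1, PCDHAC2, PCDHGC3, PCDHGC4 and PCDHGC5) are regulated apart from the others.

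This layout decides what a probe can see, and the probes the results turn on are printed 5′ to 3′ for that reason. For 33 of the 56 probes the files listed a match to 1 gene of the clusters, for 5 a match to several, and for 18 no match was listed. A probe that the array calls PCDHB2 matched both PCDHB2 and PCDHB3, at chr5:140476664-140476723 and chr5:140482517-140482576 of build 37.1, the build of all probe positions here. Next to it the probe of PCDHB13, at chr5:140595978-140596037, is shown because the sequences are near copies: over 59 aligned bases 48 were identical (81.4%), and the capitals mark the 2 identical runs of at least 10 bases, 23 and 15 bases long.
PCDHB2 and PCDHB3: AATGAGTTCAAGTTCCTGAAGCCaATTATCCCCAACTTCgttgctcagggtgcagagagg
PCDHB13: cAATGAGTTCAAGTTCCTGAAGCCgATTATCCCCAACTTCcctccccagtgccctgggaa
The other PCDHB2 probe lay 91 bases further along the gene, at chr5:140476755-140476814, and matched PCDHB2 alone. Its first 30 bases of 60 are given, with those of the probes in the constant regions of the gamma cluster (chr5:140892394-140892453, called PCDHGA8 on the array) and of the alpha cluster (chr5:140390896-140390955, called PCDHA11). The constant region probes do not tell the genes of a cluster apart. The PCDHB11 probe (chr5:140581576-140581635) is given in full. No letters are in capitals in these, and all lie on the plus strand.
PCDHB2 alone: gctttgaattcacttaagtgttaataagga
gamma constant region: gtactgacttctcctataagcgcttctctt
alpha constant region: tcttactaacacctatgatgttacctgaaa
PCDHB11: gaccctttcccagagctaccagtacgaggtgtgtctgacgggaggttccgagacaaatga
The remaining probes with several matches were those of PCDHGA2 (also PCDHGA3) and PCDHGA12 (also PCDHGA10). In what follows a probe is called by what it matched.

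Promoter sequences were taken from RefSeq (GRCh38.p14), which held an entry of 300 bases, 250 before to 50 after the start of transcription, for 40 of the 48 symbols. The letters GGTGGCGCT, searched on both strands, were found in 13 of 14 beta promoters, in 0 of 13 alpha promoters and in 0 of 25 gamma promoters, against 176 of all 35116 promoters (0.501%). They began between 84 and 2 bases before the start. The letters were chosen after the sequences were seen and were searched only as an exact string. These shares therefore do not test whether a related sequence lies in the alpha and gamma promoters. The PCDHB1 promoter printed below holds ggtggtgct, a close variant that the search does not count. The last 100 bases before the start are printed for PCDHB2 and PCDHB3, whose shared probe was called under 2 treatments, for PCDHB13, the brightest beta probe, and for PCDHB1, the beta promoter without the letters. Capitals mark the letters searched, the strand is plus, and the positions are chr5:141094515-141094614, chr5:141100373-141100472, chr5:141213819-141213918 and chr5:141051274-141051373 in that order.
PCDHB2 promoter: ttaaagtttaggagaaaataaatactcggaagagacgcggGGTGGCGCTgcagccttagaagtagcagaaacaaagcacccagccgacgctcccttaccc
PCDHB3 promoter: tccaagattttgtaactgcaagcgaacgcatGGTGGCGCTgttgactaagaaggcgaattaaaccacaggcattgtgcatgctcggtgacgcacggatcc
PCDHB13 promoter: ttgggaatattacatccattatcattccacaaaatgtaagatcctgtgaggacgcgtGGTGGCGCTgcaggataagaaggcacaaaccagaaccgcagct
PCDHB1 promoter: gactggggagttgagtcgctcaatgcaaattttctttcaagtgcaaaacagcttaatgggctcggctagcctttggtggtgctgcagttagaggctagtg
The letters were present for PCDHB2, whose probes fell, and also for PCDHB13, whose probe was not called. They were also present for PCDHB3, which was read only through the probe it shares with PCDHB2. A change of PCDHB3 by itself was therefore not measured.

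Facts of the whole series bear on every value. The WIZ transcript had log2 ratios of -2.26 and -1.97 under WIZ siRNA and the EHMT2 transcript -1.67 and -1.65 under G9a siRNA. Each targeted gene was thus lower in its own knockdown with channels 1 and 2 read as Cy3 and Cy5. The dyes of the channels are not named, so this direction is not independent of that reading. Background noise divided the arrays into 2 sets: the smallest Cy3 background SD was 4 or 5 in set 1 (WIZ siRNA and UNC0638 replicates 1 and 2) and 11 in set 2 (G9a siRNA and UNC0638 replicates 3 to 5). Across all 34619 tested probes UNC0638 replicate 3 correlated with G9a siRNA replicates 1 and 2 at 0.87 and 0.83, where the other UNC0638 replicates had -0.06 to 0.47. It correlated with the other UNC0638 replicates at 0.10 to 0.64, and those with one another at 0.04 to 0.44. All 8 HEK293T markers, among them KRT8, KRT18, VIM and PAX2, were above background on every array in both RNAs. Of 18 markers of other cell types, all were above background on some arrays, and the endothelial PECAM1, the fibroblast COL1A2 and DCN, the liver ALB, the neuronal SYN1 and the astrocyte GFAP were above background in neither RNA of either G9a siRNA array.

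Most clustered protocadherins were near or below the background. Above background means here a signal more than 2.6 background SDs over the local background, on 50% or more of a probe's spots. Of the 56 probes 7 reached this on no array, and 2, PCDHA7 and the gamma constant region, reached it in both RNAs of every array. In set 1 between 28 and 45 of the 56 were above background in the Cy3 channel and 8 to 15 in the Cy5 channel, whichever RNA the channel held. In set 2 the numbers were 8 to 12 in Cy3 and 3 to 8 in Cy5. The count thus moved with dye and set, and cannot be read as a difference between treated and control cells.

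**Figure D1:**
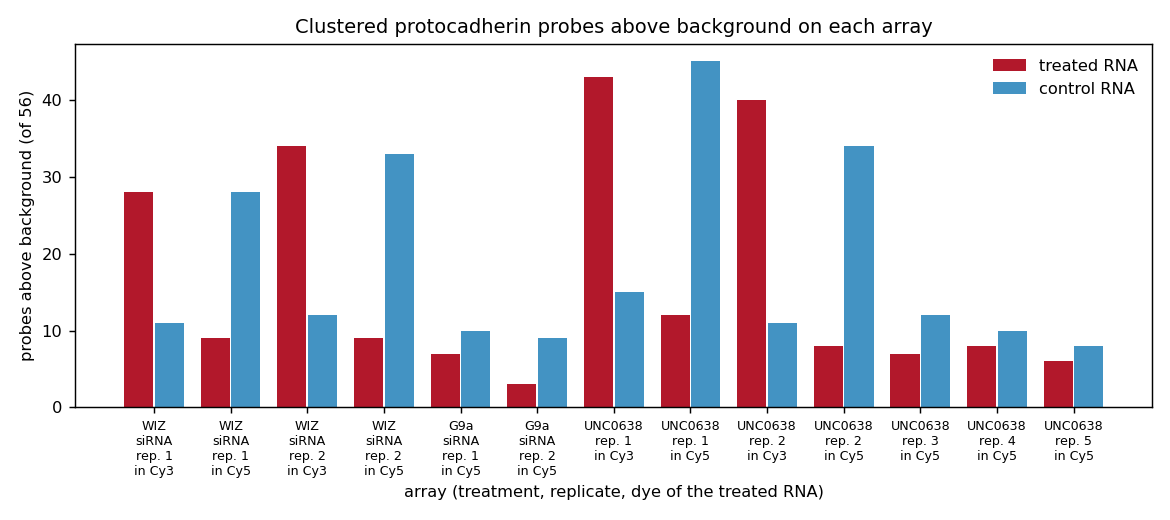
Number of the 56 clustered protocadherin probes above background on each array, with the treated RNA left of its control RNA. The taller bar is the RNA in Cy3 on all 13 arrays, and the arrays of set 1 reach 28 to 45 probes in that channel, against 8 to 12 on the arrays of set 2.

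A probe was tested if, in any of the 6 RNA groups, 50% or more of the arrays had it above background. This held for 30 of the 56, with 5 of 16 in the alpha cluster, 11 of 18 in the beta cluster and 14 of 22 in the gamma cluster. On the G9a siRNA arrays 20 of the 30 were above background in neither RNA, so their values there come from dim spots. PCDHAC2 was among the 26 that were not tested. Its log2 ratios were -0.16 and -0.04 under WIZ siRNA, -0.15 and 0.01 under G9a siRNA, and from -0.21 to 0.08, with a median of 0.03, under UNC0638. Brightness was led by the gamma constant region, PCDHB13, PCDHA7 and PCDHGA7, a ranking of probes that does not give the order of the transcripts. In bulk RNA fewer cells that express a gene and less RNA per cell cannot be told apart.

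PCDHB2, an adhesion gene of the beta cluster, was the member that fell most under UNC0638, and the probe it shares with PCDHB3 fell under both UNC0638 and WIZ siRNA. The gamma constant region fell under UNC0638 and under G9a siRNA. With the processing used here no clustered protocadherin probe was called higher in any of the 3 treatments, but under G9a siRNA PCDHA10 was called higher in 4 of 17 alternatives and 3 members were called higher with a GC trend removed. In the limma fit, with Benjamini-Hochberg adjustment over all 34619 tested probes and a threshold of 0.05, 1 of 30 members was lower under WIZ siRNA, where 0.445% of all tested probes were called lower. Under G9a siRNA 1 of 30 was lower, where 18.8% of all tested probes were called lower, so the members' share was below that of the array as a whole. Under UNC0638 4 of 30 were lower, where 1.67% of all tested probes were called lower. The shares of all tested probes called higher were 0.0635% under WIZ siRNA, 15% under G9a siRNA and 1.57% under UNC0638, and the members called higher numbered 0 in each. In either direction 0.508%, 33.8% and 3.24% of all tested probes were called in the same order of treatments. At an unadjusted p below 0.05 in limma, 5, 5 and 9 of the 30 members were counted, or 16.7%, 16.7% and 30% of them, beside 8.07%, 43.8% and 20.1% of all tested probes. Without UNC0638 replicate 3 the same 4 probes were called under UNC0638, at -0.66 (PCDHB2 alone), -0.50 (PCDHB2 and PCDHB3), -0.45 (gamma constant region) and -0.32 (PCDHB11), where 2.77% of all tested probes were called. Under G9a siRNA that fit called 3 members, 1 higher (PCDHA10) and 2 lower, where 39.1% of all tested probes were called.

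**Figure D2:**
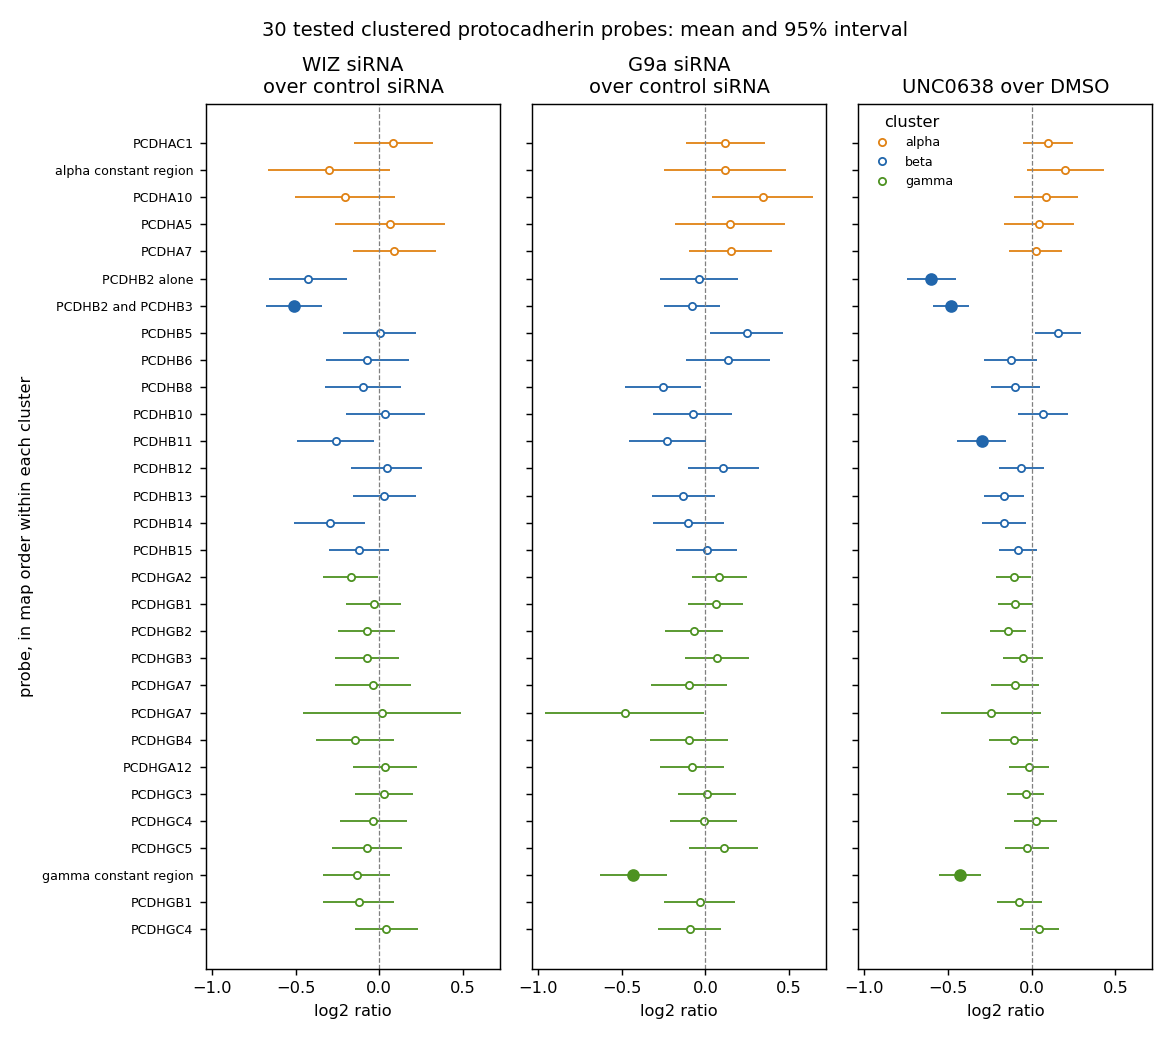
Mean log2 ratio of treated over control for the 30 tested probes, in map order within each cluster (probes without a position last), with 95% intervals from the limma fit. Filled points passed an adjusted p of 0.05: the PCDHB2 and PCDHB3 probe at -0.51 under WIZ siRNA, the gamma constant region at -0.43 under G9a siRNA, and 4 probes between -0.60 and -0.30 under UNC0638.

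The probe of PCDHB2 alone had log2 ratios of -0.46 and -0.40 in the WIZ siRNA replicates. In the G9a siRNA replicates they were 0.03 and -0.11. In the UNC0638 replicates they ran from -0.79 to -0.35 with a median of -0.59. All UNC0638 and WIZ siRNA replicates were thus below every G9a siRNA replicate, and the UNC0638 values overlapped those of WIZ siRNA. Under UNC0638 the mean was -0.60 ± 0.17 (SD, n = 5), or 66.1% of the DMSO level, and passed in the limma fit (SE 0.065, adjusted p = 0.0013). Under WIZ siRNA the mean of -0.43, or 74.4% of the control level, missed the threshold (SE 0.10, adjusted p = 0.16 in limma). The authors' log2 ratios gave -0.73 and their log10 table -1.35, neither called, and the same -0.43 was called in limma with its own replicates alone (adjusted p = 0.00074) and in set 1 alone (adjusted p = 0.0064), where 25.6% and 10.1% of all tested probes were called. Under G9a siRNA the mean was -0.04, with a 95% interval of -0.27 to 0.19.

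The signal floor matters for this probe, which was above background in the treated RNA of 4 of 7 UNC0638 arrays and in the DMSO RNA of 7 of 7. The background correction used here holds dim ratios near 0, and the authors' own deposited log2 ratios gave -1.08 for UNC0638 and their log10 table -1.54 on the log2 scale, both past the threshold (adjusted p = 0.026 and 0.023 in limma). The size of the drop therefore depended on the processing, from -0.55 to -1.54 over the alternatives, and its direction did not. In the arrays of set 2 alone the value was -0.58 with an adjusted p of 0.090, in a limma fit that called 32 probes of the whole array.

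The probe shared by PCDHB2 and PCDHB3 had log2 ratios of -0.53 and -0.49 in the WIZ siRNA replicates. It had -0.04 and -0.12 in the G9a siRNA replicates. In the UNC0638 replicates it lay between -0.60 and -0.39 with a median of -0.46. The groups separated as for PCDHB2 alone, with both WIZ siRNA values inside the range of the UNC0638 values and both G9a siRNA values above it. The means were -0.51 for WIZ siRNA, 70.4% of the control level (SE 0.074, adjusted p = 0.025 in limma), and -0.48 ± 0.084 (SD, n = 5) for UNC0638, 71.6% of the DMSO level (SE 0.047, adjusted p = 0.00082 in limma). All 4 WIZ siRNA arrays, in both dye orientations, gave values between -0.53 and -0.45. The G9a siRNA mean was -0.08, with a 95% interval of -0.25 to 0.09. The WIZ siRNA call was lost without UNC0638 replicate 1 or 4 and without either replicate of WIZ siRNA or of G9a siRNA, where the adjusted p in limma ran from 0.051 to 0.62 and the value stayed between -0.53 and -0.49. The authors' log2 ratios gave -0.68 (adjusted p = 0.18) and their log10 table -0.80 (adjusted p = 0.14) for WIZ siRNA in limma, and -0.75 and -0.92 for UNC0638.

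Whether the treatments differed was tested by contrasts of their means, and those against UNC0638 also hold the difference between 72 h and 48 h. For G9a siRNA minus UNC0638 2 of 30 members were called higher, both of them the PCDHB2 probes, where 5.86% of all tested probes were called higher and 6.66% lower. The differences were 0.56 for PCDHB2 alone (95% interval 0.29 to 0.83, adjusted p = 0.027) and 0.40 for the shared probe (0.21 to 0.60, adjusted p = 0.027) in limma. For WIZ siRNA minus G9a siRNA 1 of 30 was called lower, the shared probe at -0.43 (95% interval -0.66 to -0.19, adjusted p = 0.024 in limma), where 8.85% of all tested probes were called lower and 20.4% in either direction. For WIZ siRNA minus UNC0638 0 of 30 were called in limma, where 0.705% of all tested probes were called, and 2 (6.67%) had an unadjusted p below 0.05, beside 11% of all tested probes. In that contrast the shared probe differed by -0.02, with an interval of -0.22 to 0.17, and PCDHB2 alone by 0.17, with an interval of -0.10 to 0.45. All 3 called differences lost their call under many alternatives: 14 of 19 for PCDHB2 alone, 13 of 20 for the shared probe against UNC0638, and 9 of 19 for the shared probe between the siRNAs. Within set 2, where G9a siRNA and UNC0638 replicates 3 to 5 can be compared without crossing the sets, the differences were 0.54 and 0.37 with adjusted p = 0.26 for each in limma, in a fit that called 0 probes of the whole array. WIZ siRNA and G9a siRNA lie in different sets, and the set and the treatment cannot be told apart between them.

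Probe base composition also moved with the G9a siRNA values. With a trend on GC content removed from each array, PCDHB2 alone (35% GC) had -0.33 under G9a siRNA (adjusted p = 0.026 in limma), and its difference from UNC0638 fell short of the threshold at 0.35 (adjusted p = 0.068). The shared probe (48.3% GC) turned to 0.16 under G9a siRNA under that setting, which was not called, and its difference from UNC0638 was 0.60. The direction of the 2 probes under G9a siRNA is therefore not settled, while under UNC0638 they kept -0.68 and -0.45.

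**Figure D3:**
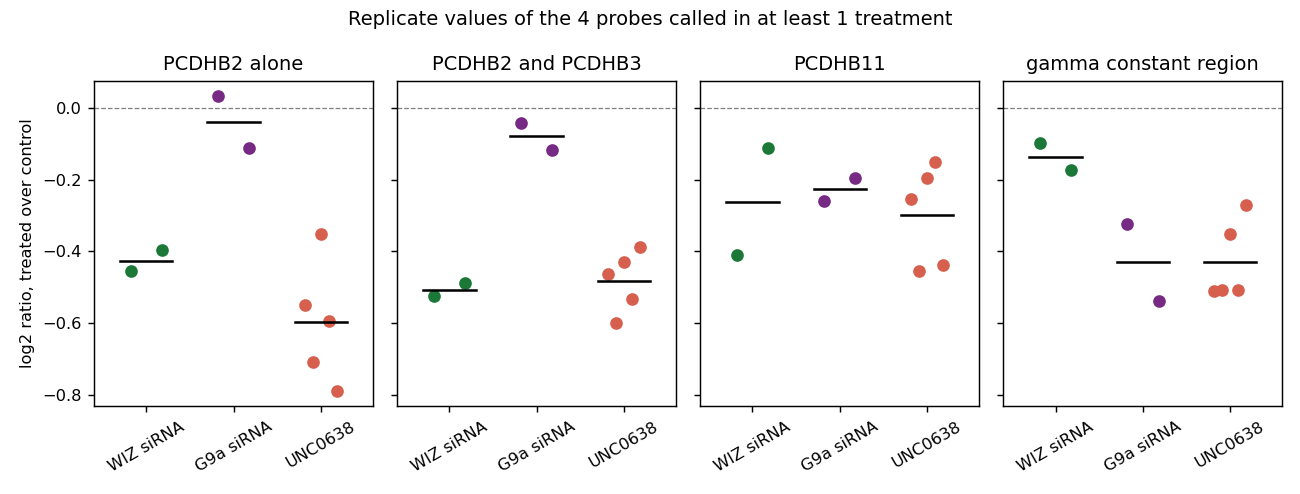
Log2 ratio of treated over control in each biological replicate (points; dye-swapped arrays averaged) with the treatment mean (line) for the 4 probes called in at least 1 treatment. For both PCDHB2 probes the WIZ siRNA and UNC0638 points lie at or below -0.35 and the G9a siRNA points between -0.12 and 0.03.

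PCDHB11, another beta gene, fell by less. Its log2 ratios were -0.41 and -0.11 in the WIZ siRNA replicates, -0.26 and -0.19 in the G9a siRNA replicates, and from -0.45 to -0.15 with a median of -0.25 in the UNC0638 replicates. All 9 replicates were below 0 and the 3 treatments overlapped. Only the UNC0638 mean of -0.30 ± 0.14 (SD, n = 5), 81.3% of the DMSO level, passed in limma (SE 0.065, adjusted p = 0.042). That call was lost under 15 of 21 alternatives, with adjusted p up to 0.20, and among them were all fits without 1 replicate except the one without UNC0638 replicate 3. The means of -0.26 under WIZ siRNA and -0.23 under G9a siRNA had adjusted p = 0.52 and 0.12, and the G9a siRNA value turned to 0.18 with the GC trend removed.

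The other 8 tested beta probes were not called in any treatment. PCDHB13, the brightest of them and the near copy of the shared PCDHB2 and PCDHB3 sequence, had 0.04 and 0.02 in the WIZ siRNA replicates, -0.22 and -0.04 in the G9a siRNA replicates, and from -0.26 to 0.01 with a median of -0.18 in the UNC0638 replicates. Its UNC0638 mean was -0.17 (95% interval -0.29 to -0.05, adjusted p = 0.14 in limma), and under WIZ siRNA its interval was -0.16 to 0.22. The drop of the shared probe under WIZ siRNA was thus not seen at PCDHB13. PCDHB14 had means of -0.30 under WIZ siRNA, -0.10 under G9a siRNA and -0.17 under UNC0638, none of them called. PCDHB5 stood at the other end of the cluster's values, with 0.00 under WIZ siRNA, 0.25 under G9a siRNA (adjusted p = 0.080) and 0.16 under UNC0638 (adjusted p = 0.20 in limma). PCDHB8 was lowest of the beta probes under G9a siRNA at -0.25, from replicates at -0.03 and -0.48. PCDHB12 was highest under WIZ siRNA, at 0.04.

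Over the 11 tested beta probes the median log2 ratio was -0.10 under WIZ siRNA, -0.08 under G9a siRNA and -0.12 under UNC0638. The medians of all tested probes were 0.02, -0.01 and -0.01 in the same order. Under UNC0638 9 of 11 beta means were below 0, against 53.4% of all tested probes, and the medians of the 5 replicates lay between -0.25 and -0.02.

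Among the tested gamma probes only that of the constant region was called. This probe, the brightest of all members, reads together the gamma transcripts that hold the constant exons. It had log2 ratios of -0.10 and -0.17 in the WIZ siRNA replicates and -0.32 and -0.54 in the G9a siRNA replicates. In the UNC0638 replicates it lay between -0.51 and -0.27 with a median of -0.51. All 9 replicates were below 0, and the G9a siRNA and UNC0638 values overlapped. The mean was -0.43 under G9a siRNA, 74.2% of the control level (SE 0.089, adjusted p = 0.0066), and -0.43 ± 0.11 (SD, n = 5) under UNC0638, 74.2% of the DMSO level (SE 0.056, adjusted p = 0.0038 in limma). Under WIZ siRNA the mean of -0.14 was not called (95% interval -0.34 to 0.07). No contrast between treatments was called for this probe: WIZ siRNA minus UNC0638 was 0.29 (interval 0.06 to 0.53), G9a siRNA minus UNC0638 0.00 (interval -0.24 to 0.24), and WIZ siRNA minus G9a siRNA 0.30 (interval 0.01 to 0.58).

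The values of this probe differed between dye orientations under UNC0638. UNC0638 replicates 1 and 2 had -0.98 and -1.08 when UNC0638 RNA was in Cy3, and -0.04 and 0.07 when it was in Cy5. The 3 replicates hybridised in Cy5 alone had -0.35, -0.51 and -0.27. In the WIZ siRNA pairs the orientations gave -0.05 and -0.28 in Cy3, and -0.14 and -0.07 in Cy5, a smaller gap. The averages of the swapped pairs were -0.51 and -0.51, close to the lowest of the other 3 replicates. With the dye effect subtracted the UNC0638 mean was -0.60 (adjusted p = 0.00077 in limma) and the G9a siRNA mean -0.71 (adjusted p = 0.0062). The G9a siRNA call was lost with the GC trend removed, at -0.05 (adjusted p = 0.73), without G9a siRNA replicate 2, at -0.32 (adjusted p = 0.15), and in the authors' log10 table, at -0.46 (adjusted p = 0.064, all in limma). The UNC0638 value with the GC trend removed was -0.35 (adjusted p = 0.019 in limma), and in set 2 alone it was -0.38 and lost its call (adjusted p = 0.13).

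No variable-exon probe of the gamma cluster was called. The PCDHGA8 symbol shows what the constant region adds, since the other probe of that symbol, which matched PCDHGA8 alone, was above background on no array. Of the 14 tested gamma probes 10 had means below 0 under WIZ siRNA, 9 under G9a siRNA and 12 under UNC0638, with medians of -0.05, -0.05 and -0.09. The widest spread was at PCDHGA7, where the probes disagreed. One had 0.02 and 0.01 under WIZ siRNA, -0.22 and -0.75 under G9a siRNA, and -0.76 to 0.06 under UNC0638, with replicates 3 and 4 at -0.76 and -0.56 and the other 3 between 0.02 and 0.06. The second PCDHGA7 probe lay between -0.31 and 0.07 in all 9 replicates. The low values of the first were thus all on arrays of set 2, and its fits gave -0.48 for G9a siRNA (adjusted p = 0.11) and -0.24 for UNC0638 (adjusted p = 0.34 in limma). The probe of PCDHGA2 and PCDHGA3 was the lowest gamma probe under WIZ siRNA, at -0.17 (adjusted p = 0.59 in limma), and had 0.08 under G9a siRNA and -0.11 under UNC0638.

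None of the C-type genes was called, and their values are of dim probes that changed with the processing. PCDHGC3 had means of 0.03 under WIZ siRNA, 0.01 under G9a siRNA and -0.03 under UNC0638, and the UNC0638 interval ran from -0.14 to 0.08. PCDHGC4 was read by a pair of probes, whose means lay between -0.09 and 0.05 in all treatments. PCDHGC5 had -0.07 under WIZ siRNA, 0.11 under G9a siRNA and -0.03 under UNC0638. PCDHAC1, in the alpha cluster, had 0.08, 0.12 and 0.10 in the same order. The authors' log2 ratios gave 0.84 for PCDHGC3, 0.56 for PCDHGC5 and 1.37 for PCDHAC1 under G9a siRNA, and -0.60 for PCDHGC3 under UNC0638. Their log10 table gave -0.69 for PCDHGC5 under WIZ siRNA and -0.76 for PCDHAC1 under UNC0638. None of these values from the authors' ratios was called in limma. With the GC trend removed PCDHGC5 was called higher under G9a siRNA, at 0.45 (adjusted p = 0.0061 in limma). All these probes were above background in neither RNA of the G9a siRNA arrays, except 1 PCDHGC4 probe in 1 control RNA.

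In the alpha cluster 5 probes were tested and none was called. PCDHA7, the brightest, had 0.12 and 0.05 in the WIZ siRNA replicates, -0.01 and 0.31 in the G9a siRNA replicates, and from -0.14 to 0.28 with a median of -0.01 in the UNC0638 replicates. Its intervals were -0.16 to 0.34, -0.10 to 0.40 and -0.13 to 0.18. PCDHA5 likewise had means of 0.06, 0.14 and 0.04. The alpha constant region had -0.27 and -0.33 in the WIZ siRNA replicates, 0.16 and 0.07 in the G9a siRNA replicates, and from -0.09 to 0.73 with a median of 0.18 in the UNC0638 replicates, the highest being replicate 3. Its means of -0.30, 0.12 and 0.20 had intervals that spanned 0. PCDHA10 had -0.21 under WIZ siRNA, 0.34 under G9a siRNA (adjusted p = 0.078) and 0.09 under UNC0638, and it was above background in neither RNA of the G9a siRNA arrays. The cluster's median was 0.06 under WIZ siRNA, 0.14 under G9a siRNA and 0.09 under UNC0638, and in the 5 UNC0638 replicates its medians ran from -0.09 to 0.24, with 3 of 5 below 0 and replicate 3 the highest.

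The genes around the clusters were measured on the same arrays. The mapped members spanned 659 kb, and 29 genes with probes lay between or within 1 Mb of them, 26 of which were tested. TAF7, which encodes a subunit of the general transcription factor TFIID, has its probe at chr5:140698128-140698187, between the beta and gamma clusters and 465 kb from the first member. It had -0.32 and -0.26 in the WIZ siRNA replicates, -0.06 and 0.23 in the G9a siRNA replicates, and from -0.65 to -0.43 with a median of -0.56 in the UNC0638 replicates. Under UNC0638 the mean was -0.54 (SE 0.056, adjusted p = 0.0011 in limma). TAF7 was the only one of the 26 called lower there, where 1.67% of all tested probes were called lower. The means of -0.29 under WIZ siRNA and 0.08 under G9a siRNA were not called, and the difference of G9a siRNA minus UNC0638 was 0.62 (adjusted p = 0.020 in limma). ARAP3, a GTPase regulator on the far side of the gamma cluster, was the only one called higher under UNC0638, at 0.24 (adjusted p = 0.028 in limma). Of all tested probes 1.57% were called higher there. SLC25A2, a mitochondrial carrier gene next to TAF7, had -0.11, and DIAPH1, next to the gamma constant region, -0.10 under UNC0638, neither called. Under WIZ siRNA 0 of 26 were called in limma, where 0.508% of all tested probes were called in either direction. Their means ran from -0.47 for CYSTM1 (adjusted p = 0.063 in limma) to 0.27 for SLC35A4, and DELE1 had -0.33. Drops as large as that of TAF7 under WIZ siRNA were thus also seen outside the clusters. Under G9a siRNA 2 were higher, RNF14 (0.38) and IGIP (0.66), and 8 were lower, from -0.51 for SLC35A4 to -0.23 for ARAP3, beside the 15% and 18.8% of all tested probes given above.

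**Figure D4:**
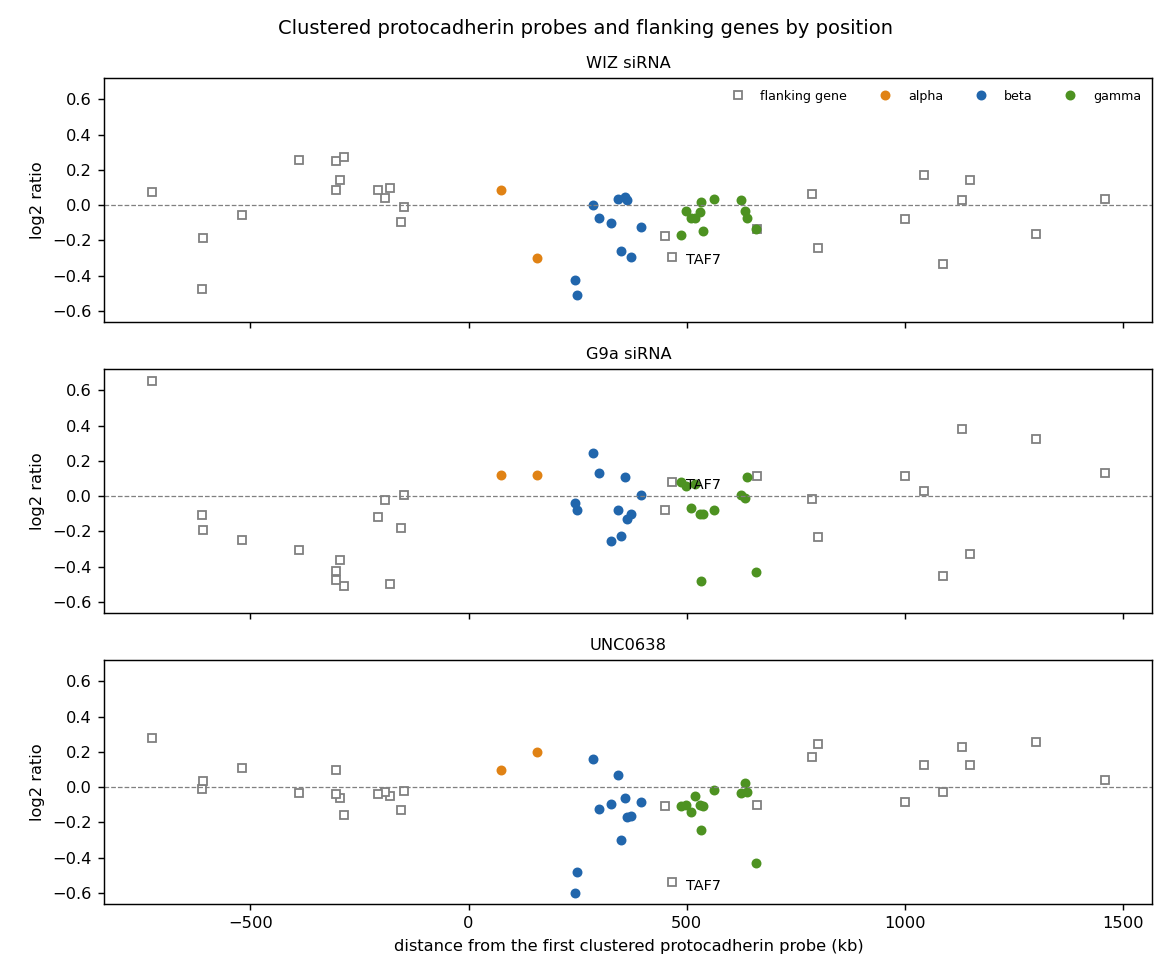
Mean log2 ratio against distance from the first clustered protocadherin probe, in kb on build 37.1, for mapped members (circles, by cluster) and flanking genes (open squares) in each treatment. Under UNC0638 both PCDHB2 probes, TAF7 and the gamma constant region stand below -0.4, with the probes between them mostly within 0.3 of 0.

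Genes known to act on the clusters or to be close kin are read against the shares of all tested probes called, 0.508% under WIZ siRNA, 33.8% under G9a siRNA and 3.24% under UNC0638. Of 28 regulators of the clusters, which include CTCF, cohesin subunits, DNA methyltransferases and heterochromatin proteins, 1 was lower under WIZ siRNA, WIZ itself. Under G9a siRNA 12 were higher, among them WAPL, which releases cohesin, at 0.83 and the heterochromatin protein gene CBX5 at 0.67. EHMT2 (-1.66), TRIM28 (-0.70) and MORC2 (-0.42) were lower, and the list median was 0.30. Under UNC0638 1 was higher, TASOR, a subunit of the HUSH silencing complex, at 0.33 (adjusted p = 0.037 in limma), with a list median of 0.08. Of 21 protein partners, such as the kinases and actin regulators that bind protocadherin tails, 0 were called under WIZ siRNA or UNC0638 in limma, and 6 were higher and 4 lower under G9a siRNA. The ends of that range were ABI1, of the WAVE actin complex, at 0.94 and PSENEN, a gamma-secretase subunit, at -0.99. Of the HEK293T markers KRT18 (-0.50) and XBP1 (-0.49) were lower under G9a siRNA and 0 were called under WIZ siRNA or UNC0638 in limma. Of the 18 markers of other cell types CDH5, SNAP25 and MAP2 were higher under G9a siRNA (0.42 to 0.47). APOA1 and GFAP also passed the test there, but neither was above background in the G9a siRNA RNA of either array. The neuronal SYN1 (0.58) and SNAP25 (0.72) were higher under UNC0638. The other neuronal markers, MAP2 (-0.09) and SYT1 (0.18), were not called there. Under G9a siRNA SYT1 (-0.34) was not called, and SYN1 was not above background. The part of the genes of these lists in the members' values was not tested.

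Among 16 tested non-clustered protocadherins 0 were called under WIZ siRNA and 1 was higher under UNC0638. This was PCDH8, an adhesion gene on chromosome 13. It had -0.21 and -0.09 in the WIZ siRNA replicates, 0.17 and 0.39 in the G9a siRNA replicates, and from 0.56 to 1.08 with a median of 0.63 in the UNC0638 replicates. The UNC0638 mean of 0.71 passed in limma (adjusted p = 0.0014), in the direction opposite to PCDHB2. PCDH1 had the largest change of this list under WIZ siRNA, at -0.70 (adjusted p = 0.058 in limma), from replicates at -0.77 and -0.63. It had 0.09 under UNC0638 and -0.01 under G9a siRNA. A dimmer PCDH1 probe, counted among the flanking genes above, had -0.08 under WIZ siRNA. Under G9a siRNA FAT4 (0.57), PCDH20 (0.69) and PCDH17 (0.72) were higher, and PCDH10 (-0.63) and FAT1 (-0.62) were lower. PCDH9 and DCHS1 also passed the test, but neither was above background in the G9a siRNA RNA of either array, so no size or direction is given. Of 7 tested classical cadherins CDH3, the placental cadherin gene, fell under UNC0638, at -0.40 (adjusted p = 0.0035 in limma), with -0.42 under WIZ siRNA (adjusted p = 0.077) and 0.05 under G9a siRNA. CDH1 (0.54) was higher under G9a siRNA, and CDH10 passed the test but was above background in the G9a siRNA RNA of neither array.

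**Figure D5:**
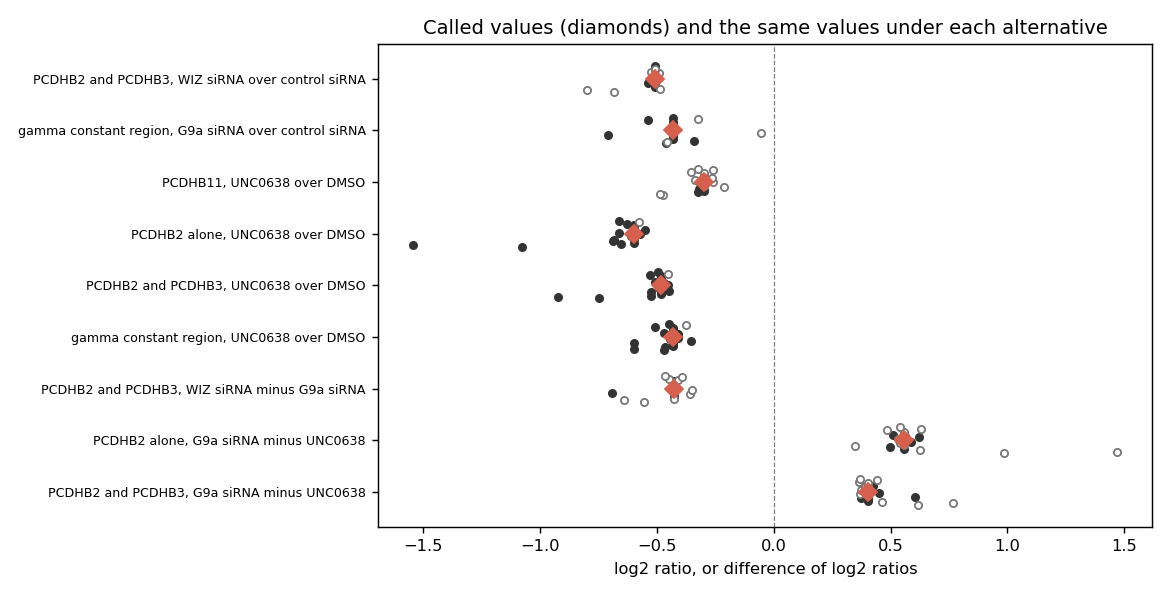
Values of the called members (diamonds) and the same values under each alternative setting (circles, filled where the adjusted p stayed below 0.05), on the log2 scale. The circles keep the sign of their diamond in each case shown, most of those for PCDHB11 and for the differences between treatments are open, and the gamma constant region under G9a siRNA reaches -0.05.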

How the data were processed

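Total RNA was measured on 13 two-colour arrays. The members and gene lists were chosen with earlier results of these data known, and the promoter letters after the sequences were seen. The deposited spot and background intensity values are uncorrected pixel means and medians of channels 1 and 2, per the file headers, read here as Cy3 and Cy5, under which each siRNA's target was lower in its own knockdown. The log2 ratios in each file were normalized by the authors, per the file headers. The deposited log10 ratio table has its scale, centring and direction unstated; it was turned by its correlation with each array's log2 ratio. Software and scanner are not given in the sources used here.

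Intensities were corrected in limma 3.58.1 (R 4.3.3) with normexp (offset 50) over 62976 spots, normalized by loess with weight 0 for 4259 control spots, and averaged to 42405 probes. Dye-swapped arrays were turned and averaged to 9 replicates, which entered 1 lmFit and eBayes fit (6 residual and 3.28 prior degrees of freedom). The spread of each 2-replicate siRNA group is thus largely borrowed. P-values were adjusted over 34619 probes. The fit was tested on simulated data. Named members were those called, the 3 brightest of each cluster, the C-type genes and each cluster's extremes. Alternatives are under the closing section. The number of arrays limits the precision.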

Additional observations from a re-analysis of the deposited data

Results flagged for a closer look

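One UNC0638 replicate stood far from the others at PCDHGC5: replicate 4 had 0.23 while the other 4 lay between -0.12 and -0.05. Its gap was 0.808 of the range, above the critical value of 0.71 for 5 samples, among 20 probes examined, and chance flags about 1 in 20.

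Differences between treatments are listed here only for clustered members, TAF7, PCDH8 and CDH3, and passed in the limma contrasts for 4 of these genes. Of all tested probes 12.5% were called for G9a siRNA minus UNC0638 and 20.4% for WIZ siRNA minus G9a siRNA. For WIZ siRNA minus UNC0638 the share was 0.705%. G9a siRNA minus UNC0638 was 0.56 for PCDHB2 alone (adjusted p = 0.027), 0.40 for the PCDHB2 and PCDHB3 probe (adjusted p = 0.027), 0.45 for CDH3 (adjusted p = 0.026) and 0.62 for TAF7 (adjusted p = 0.020). WIZ siRNA minus G9a siRNA was -0.43 for the PCDHB2 and PCDHB3 probe (adjusted p = 0.024) and -0.47 for CDH3 (adjusted p = 0.025). WIZ siRNA minus UNC0638 was -0.86 for PCDH8 (adjusted p = 0.037). Outside the clusters these calls were lost in 13 of 21 alternatives for CDH3 and 7 of 21 for TAF7 (G9a siRNA minus UNC0638), 9 of 20 for CDH3 (WIZ siRNA minus G9a siRNA) and 12 of 21 for PCDH8. The part of array set, GC content and exposure time in these was not tested beyond the alternatives given.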

How the results depend on the processing

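The 4 members called under UNC0638 became 1 of the 2 tested when every array had to be above background, where 3.56% of all tested probes were called. The PCDHB2 and PCDHB11 probes were not tested there. In set 2 alone the count became 0, where 0.0924% of all tested probes were called. The 1 called under WIZ siRNA became 0 with the authors' log2 ratios, their log10 table or scaling between arrays. There 0.0838%, 0.0981% and 0.428% of all tested probes were called. With every array above background only PCDHA7 and the gamma constant region were left, so the called probe was not tested. The count became 4 in set 1 alone and 7 on its own replicates, all lower, where 10.1% and 25.6% of all tested probes were called. The 1 called under G9a siRNA became 2 with no filter on dim probes or the dye effect subtracted, where 27.6% and 27% of all tested probes were called. The count became 3 (1 higher) on its own replicates and 6 (3 higher) with the GC trend removed. There 38.6% and 43.8% of all tested probes were called. The count was also 1 with the log10 table, but a higher one, PCDHA10, where 28.3% of all tested probes were called. For WIZ siRNA minus UNC0638, 0 became 2 in set 1 alone, where 4.24% of all tested probes were called. For G9a siRNA minus UNC0638, 2 became 1 with the brightest probe per gene, which keeps 1 PCDHB2 probe, where 12.7% of all tested probes were called. The 2 became 0 with the authors' log2 ratios (5.72% of all tested probes called), their log10 table (0.33%), scaling (0.832%) and own replicates (0.0231%). They also became 0 with the set as a block (0.832%) and in set 2 alone (0%). With every array above background neither PCDHB2 probe was tested. For WIZ siRNA minus G9a siRNA, 1 became 0 with the log2 ratios (13.2% of all tested probes called), scaling (8.22%) and the set as a block (0.00578%). With every array above background the called probe was not tested. The count became 3 with the GC trend removed and 4 on own replicates, where 27% and 38.8% of all tested probes were called. It was also 1 with the dye effect subtracted, but a higher one, where 11% of all tested probes were called.

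Leaving out 1 UNC0638 replicate gave 3 to 4 members under UNC0638, where 1.79% to 2.77% of all tested probes were called. Under WIZ siRNA it gave 0 to 1 (0.269% to 1.06% of all tested probes) and under G9a siRNA 1 to 3 (31.3% to 39.1%). For G9a siRNA minus UNC0638 it gave 0 to 3 (2.06% to 28.7%). For WIZ siRNA minus G9a siRNA it gave 1 to 4 (16.9% to 29.5%). A left-out siRNA replicate leaves a lone sample, which is assumed to vary like the other groups, so no count of members is given for those fits. With the replicate number as a block 1, 4 and 6 members were called for WIZ siRNA minus UNC0638, G9a siRNA minus UNC0638 and WIZ siRNA minus G9a siRNA, where 1.7%, 38.1% and 40.9% of all tested probes were called. Same-numbered replicates deviated together at correlations of -0.28 to 0.37. The deviations of 2 replicates in an siRNA group mirror one another, so these values cannot decide whether the numbers pair the samples. Set 1 alone, set 2 alone and the fit without UNC0638 replicate 3 and G9a siRNA were chosen after seeing the data. The last of these gave 3 members under UNC0638, where 2.45% of all tested probes were called. The fits with the GC trend removed hold only the 25 members with a listed sequence. The cause of these changes was not tested. No called value of a named member, of TAF7, of PCDH8 or of CDH3 changed sign under any alternative that was run. Dim signal limits most members: 20 of 30 were above background in neither RNA of the G9a siRNA arrays.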
